A study of Mus musculus with 4 samples.

Results

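The 10 genes described here report or restrain signaling through the RAS-ERK pathway, and were chosen by gene symbol. They are the dual-specificity phosphatases Dusp1, Dusp4, Dusp5 and Dusp6, the Sprouty genes Spry1, Spry2 and Spry4, the Sprouty-related gene Spred1, and the ETS factors Etv4 and Etv5. All 10 were found among the 24346 gene symbols listed for each library. Of these, 9 reached an FPKM of 1 in 2 or more libraries and were tested, and Spry4 did not pass this filter. RNA was sequenced from cultured hair follicle stem cells (HFSCs), sorted as CD49f+ CD34+ cells from the dorsal skin of 4-week-old C3H/HeN mice and passaged weekly in the serum-free medium M-CnT. One group had undergone 10 passages (10p-HFSCs, 2 libraries) and the other 48 passages (48p-HFSCs, 2 libraries), and no other treatment separated them. The labels do not state whether the libraries of a group came from separate cultures or animals, so the p-values measure only the spread between these libraries, which may be technical.

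Growth factor receptors such as those for FGF and EGF activate RAS, which drives a chain of kinases ending in ERK. Active ERK induces genes that switch the pathway off again. DUSP phosphatases remove phosphate from ERK and related kinases, Sprouty and Spred proteins act upstream at the level of RAS and RAF, and ETV4 and ETV5 are transcription factors that are raised by FGF signaling in many epithelia. In skin, this pathway is known for its part in keratinocyte growth and in the hair cycle. RNA levels of these genes are read here. Phosphorylated ERK was not measured in these libraries.

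The feedback genes did not move together between 10 and 48 passages. Dusp4 rose, while Dusp6, Spred1 and Etv5 fell, and the related pair Etv4 and Etv5 changed their order. A gene was called at a Benjamini-Hochberg adjusted p under 0.05 in limma and a log2 difference of 1 or more, on the scale of log2(FPKM + 1), where FPKM is an abundance scaled for exon length and for the number of mapped fragments. By this rule, 1 of the 10 genes was called higher and 3 were called lower, beside 10.8% of all 11018 tested genes called higher and 9.15% called lower, or 19.9% in either direction. Dusp4, the gene called higher, passed the filter only through the 48p-HFSC libraries, so it could be tested only with a rise. The other 5 tested genes were not called, and 7 of the 9 had an unadjusted p under 0.05, beside 37.4% of all tested genes. Each of the 4 calls was lost when either 10p-HFSC library was left out. In 4 genes the libraries did not overlap and were higher at 48 passages, and in 4 they did not overlap and were lower. The same held for 31.7% and 34.3% of all tested genes, or 65.9% in either direction, so that separation of the libraries was common and is not particular to these genes.

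**Figure D1:**
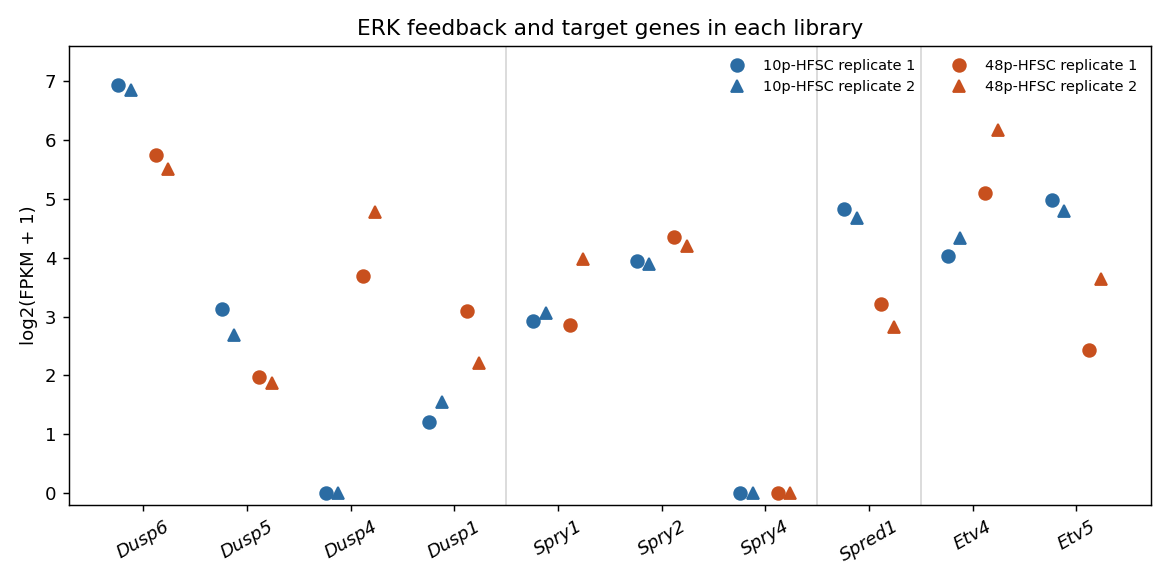
Level of each of the 10 genes in each library, on a log2(FPKM + 1) axis, with circles for replicate 1, triangles for replicate 2, blue for 10p-HFSCs and orange for 48p-HFSCs. Dusp6 was highest at 10 passages, Dusp4 was at 0 in both 10p-HFSC libraries, and Spry4 was at 0 in all 4.

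The labelled cell type was checked against marker genes, and the libraries against each other. Basal keratinocyte markers were abundant. Their summed FPKM over 6 genes was 3472 and 2874 at 10 passages and 12483 and 7913 at 48 passages. Of these, Itga6 and Itgb4 were called higher at 48 passages and none was called lower. Of the stem cell markers, Cd34 was at an FPKM no higher than 0.234 and Lhx2 no higher than 0.0241 in each library. This was so although the cells had been sorted on CD34 protein. Sox9 fell (limma adjusted p = 0.0389), and Krt15 differed between the 48p-HFSC replicates (425 and 18.8). For Sox9 the direction is the opposite of that in the paper's qRT-PCR, which gave a significant increase of Sox9 and Lhx2 in 48p-HFSCs. The paper also reports Cd34 and Krt15 RNA as maintained and most cells of both groups as positive for CD34 protein. The reason for these differences was not tested. Of 8 fibroblast markers, 6 were under 1 in all libraries and Dcn, Lum and Thy1 were listed at 0, but Vim and Col1a2 were high at 10 passages alone, giving summed FPKM of 353 and 388 at 10 passages and of 2.50 and 3.32 at 48 passages. Of 5 leukocyte markers, Cd68 and Lyz2 were called higher at 48 passages, Ptprc was at most 0.0711, and Cd3e and Tyrobp were listed at 0 in all libraries. Lyz2 passed the filter on low values only through the 48p-HFSC libraries, so it could be tested only with a rise. The summed FPKM of 5 leukocyte markers was 7.31 to 7.61 at 10 passages and 56.4 to 80.7 at 48 passages, that of 5 melanocyte markers 1.24 to 1.29 and 3.85 to 11.7, and that of 4 endothelial markers 2.31 to 2.54 and 0.292 to 1.37. These sums rest on few genes. Of the melanocyte markers, Tyr was at 1.33 and 9.48 at 48 passages, while Dct was listed at 0 in all libraries. Of the endothelial markers, 3 were under 1 in all libraries, and Pecam1 went from 2.38 and 2.24 to 1.01 and 0.172. Whether other cells took part in the differences below was not tested, and in bulk RNA fewer cells of a type and less RNA per cell cannot be told apart. Replicate 2 of 48p-HFSCs stood apart, with a summed FPKM of 1414953 against 581516 to 719012 in the others, and with the lowest relative depth, 46.7% of that of replicate 1 of 10p-HFSCs. How many reads each library held is unknown.

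To show the sequence next to the genes that fell or that carry a motif, promoter windows were read from RefSeq (GRCm38.p6), from 250 bases before the gene's start up to the start. Windows of 7 of the 10 genes were used, and those of Dusp4, Etv4 and Spry4 were not examined. On both strands of the windows from 250 bases before to 50 bases after the start, 5 motifs were searched, the cAMP response element TGACGTCA, the AP-1 site TGANTCA, the ETS core CCGGAA, the EGR site GCGNGGGCG, and the CArG box bound by serum response factor. Capitals mark a match, and the sequences are written 5′ to 3′ on the strand of the gene. Dusp6 (chr10:99262981-99263230, plus strand), Spred1 (chr2:117120821-117121070, plus strand) and Etv5 (chr16:22439571-22439820, minus strand) are shown because they were called lower together, and Dusp1 (chr17:26508473-26508722, minus strand) and Dusp5 (chr19:53528895-53529144, plus strand) because they hold a match.
Dusp6: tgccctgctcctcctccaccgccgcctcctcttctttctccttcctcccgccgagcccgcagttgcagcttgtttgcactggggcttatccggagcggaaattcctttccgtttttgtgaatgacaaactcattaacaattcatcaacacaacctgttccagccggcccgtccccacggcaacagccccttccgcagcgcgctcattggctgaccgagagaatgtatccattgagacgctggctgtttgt
Spred1: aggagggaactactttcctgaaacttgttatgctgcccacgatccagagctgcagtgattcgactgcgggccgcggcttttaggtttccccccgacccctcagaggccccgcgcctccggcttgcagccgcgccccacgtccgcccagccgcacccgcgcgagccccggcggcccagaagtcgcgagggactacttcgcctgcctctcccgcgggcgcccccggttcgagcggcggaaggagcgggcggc
Etv5: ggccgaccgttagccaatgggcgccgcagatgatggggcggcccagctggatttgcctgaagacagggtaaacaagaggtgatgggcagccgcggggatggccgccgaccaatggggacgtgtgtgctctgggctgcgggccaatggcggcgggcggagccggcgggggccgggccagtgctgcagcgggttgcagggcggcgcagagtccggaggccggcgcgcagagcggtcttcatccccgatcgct
Dusp1: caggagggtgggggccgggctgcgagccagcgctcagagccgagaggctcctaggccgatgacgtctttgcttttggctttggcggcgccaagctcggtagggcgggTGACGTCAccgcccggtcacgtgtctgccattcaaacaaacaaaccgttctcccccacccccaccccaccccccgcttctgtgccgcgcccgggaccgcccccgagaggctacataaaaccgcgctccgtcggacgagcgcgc
Dusp5: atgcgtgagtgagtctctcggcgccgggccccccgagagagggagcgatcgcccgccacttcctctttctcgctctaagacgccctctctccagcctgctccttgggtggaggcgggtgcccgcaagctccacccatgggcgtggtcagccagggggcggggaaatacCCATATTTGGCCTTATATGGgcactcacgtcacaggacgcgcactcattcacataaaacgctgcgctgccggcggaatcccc
Dusp1 held 1 cAMP response element that began 143 bases before its start, a motif found in 1.79% of 32817 promoter windows. Dusp5 held 2 CArG boxes side by side, beginning 82 and 72 bases before its start, and 1.63% of windows held at least 1. Spry2 held 1 ETS core that began 33 bases after its start, a motif of 14.9% of windows. The AP-1 site, in 7.81% of windows, and the EGR site, in 5.56%, were matched in none of the windows of the 7 genes. The windows of Dusp6, Spred1 and Etv5, a second start of Etv5 included, matched none of the 5 motifs, which says only that these letters are not in these windows. A match is a description of the sequence and not evidence of binding.

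Among the phosphatases, Dusp6 was the most abundant gene of the set at 10 passages. Dusp6 encodes a cytoplasmic phosphatase selective for ERK, and lies on chromosome 10 of GRCm38 (mm10) from 99263231 to 99267489. Its FPKM was 122 and 114 after 10 passages and 52.5 and 44.3 after 48 passages, so that both groups were tight and well separated. The mean went from 118 ± 5.73 (SD, n = 2) to 48.4 ± 5.82 (SD, n = 2), a 2.44-fold lower level. On the log2(FPKM + 1) scale the difference was -1.27 (standard error 0.26, 95% interval -1.92 to -0.63, limma adjusted p = 0.0235). In 10p-HFSCs, 94.4% and 93.4% of tested genes had an FPKM at or below that of Dusp6, and at 48 passages 86.0% and 79.1% did.

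Dusp5, which encodes a nuclear phosphatase selective for ERK, had lower values in the same direction. It was at an FPKM of 7.75 and 5.45 at 10 passages and of 2.91 and 2.64 at 48 passages, with no overlap between the groups. Its log2 difference of -0.99 (standard error 0.29, 95% interval -1.71 to -0.28) did not pass the test (limma adjusted p = 0.0613). Dusp5 is the gene with the pair of CArG boxes in its promoter window. After values were corrected for length and GC content of the transcripts, an alternative chosen after the data had been seen, Dusp5 was called lower (difference -1.10, limma adjusted p = 0.0433). The ratio of Dusp5 to Dusp6 FPKM inside a library, to which no scaling between libraries applies, was 0.0634 and 0.0478 at 10 passages and 0.0554 and 0.0596 at 48 passages. For this ratio the groups overlapped.

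Dusp4, on chromosome 8 from 34807610 to 34819894, encodes a nuclear phosphatase that acts on ERK and on the stress kinases JNK and p38. At 10 passages both libraries listed it at 0, and it had an FPKM of 12.0 and 26.4 after 48 passages, the largest contrast among the 10 genes. No fold change can be given from FPKM against libraries listed at 0. The paper already lists Dusp4 among its most upregulated genes in 48p-HFSCs, with a log2 fold change from its own analysis. The log2(FPKM + 1) difference was 4.24 (standard error 0.40, limma adjusted p = 0.00203). Dusp4 passed the filter on low values only through the 48p-HFSC libraries, which were 2.21-fold apart. None of 27 genes that every cell uses, the subunits of RNA polymerase II and of the proteasome core, was listed at 0 in any library, a check added after the data had been seen. It cannot show whether the 0 of Dusp4 means absent RNA. In the 10p-HFSC libraries, 9854 and 10177 gene symbols were listed at 0.

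Dusp1 encodes a nuclear phosphatase of the same group, which is induced rapidly by mitogens and by stress. Its FPKM was 1.32 and 1.92 at 10 passages and 7.49 and 3.61 at 48 passages. Both 48p-HFSC libraries were higher, but they differed from each other more than the 10p-HFSC libraries did. The log2 difference of 1.26 (standard error 0.37, 95% interval 0.35 to 2.18) was not called (limma adjusted p = 0.0631). Without replicate 2 of 48p-HFSCs it was 1.70 and was called (limma adjusted p = 0.0276), and without replicate 1 of 48p-HFSCs it was 0.82. Under quantile normalization Dusp1 was also called (limma adjusted p = 0.0267). Its promoter window, printed with those of the set, held the cAMP response element.

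Of the upstream inhibitors, Spred1 fell and the Sprouty genes were not called. Spred1, on chromosome 2 from 117121071 to 117182279, encodes a membrane-associated protein that works with neurofibromin to keep RAS inactive. Its FPKM was 27.3 and 24.5 at 10 passages and 8.27 and 6.04 at 48 passages, with every 48p-HFSC value far under the 10p-HFSC values. The mean went from 25.9 ± 1.96 (SD, n = 2) to 7.15 ± 1.58 (SD, n = 2), a 3.62-fold lower level. The log2 difference was -1.73 (standard error 0.28, 95% interval -2.41 to -1.06, limma adjusted p = 0.0106).

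Spry2, an intracellular inhibitor of receptor tyrosine kinase signaling, was at an FPKM of 14.3 and 13.8 at 10 passages and of 19.5 and 17.3 at 48 passages. The groups did not overlap, but the log2 difference of 0.36 had a 95% interval of -0.24 to 0.97 (limma adjusted p = 0.327). Spry1, a related inhibitor, was at 6.56 and 7.31 at 10 passages and at 6.23 and 14.7 at 48 passages, so that the groups overlapped (difference 0.43, 95% interval -0.60 to 1.45, limma adjusted p = 0.492). For both Sprouty genes the sign turned when each library was rescaled to the same summed FPKM (TPM), to -0.11 for Spry1 and -0.18 for Spry2. That rescaling also moved the median of all tested genes from -0.03 to -0.55. Relative to the median, Spry1 was at 0.45 and Spry2 at 0.37 under TPM, beside 0.46 and 0.40 as deposited. Without replicate 2 of 48p-HFSCs, Spry1 had a difference of -0.13. Spry4, another member of the family, was listed at 0 in all 4 libraries, so no statement on its change can be made.

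The ETS factors Etv4 and Etv5 belong to one subfamily and are both used as readouts of FGF and ERK signaling, yet their values differed in opposite directions. Etv5 lies on chromosome 16 from 22381313 to 22439570. Its libraries showed an FPKM of 30.4 and 26.6 at 10 passages and of 4.40 and 11.5 at 48 passages. The 48p-HFSC libraries were 2.60-fold apart but both lay under the 10p-HFSC libraries. The mean went from 28.5 ± 2.71 (SD, n = 2) to 7.93 ± 4.99 (SD, n = 2), with a log2 difference of -1.84 (standard error 0.43, 95% interval -2.91 to -0.78, limma adjusted p = 0.0340). It was -1.24 without replicate 1 and -2.45 without replicate 2 of 48p-HFSCs, and was called in both cases. Without the filter on low values the difference was the same and the call was lost (limma adjusted p = 0.0796).

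Etv4 lies on chromosome 11 from 101769747 to 101785310. Its libraries showed an FPKM of 15.3 and 19.2 at 10 passages and of 33.3 and 71.3 at 48 passages. Both 48p-HFSC values were above both 10p-HFSC values, with means of 17.2 ± 2.78 (SD, n = 2) and 52.3 ± 26.9 (SD, n = 2). The log2 difference of 1.46 (standard error 0.40, 95% interval 0.47 to 2.45) missed the threshold (limma adjusted p = 0.0535). Without replicate 1 of 48p-HFSCs it was 2.00 and was called (limma adjusted p = 0.0150), and without replicate 2 of 48p-HFSCs it was 0.92. The length and GC correction also brought Etv4 past the threshold (difference 1.36, limma adjusted p = 0.0374), as did quantile normalization (difference 1.35, limma adjusted p = 0.0244).

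**Figure D2:**
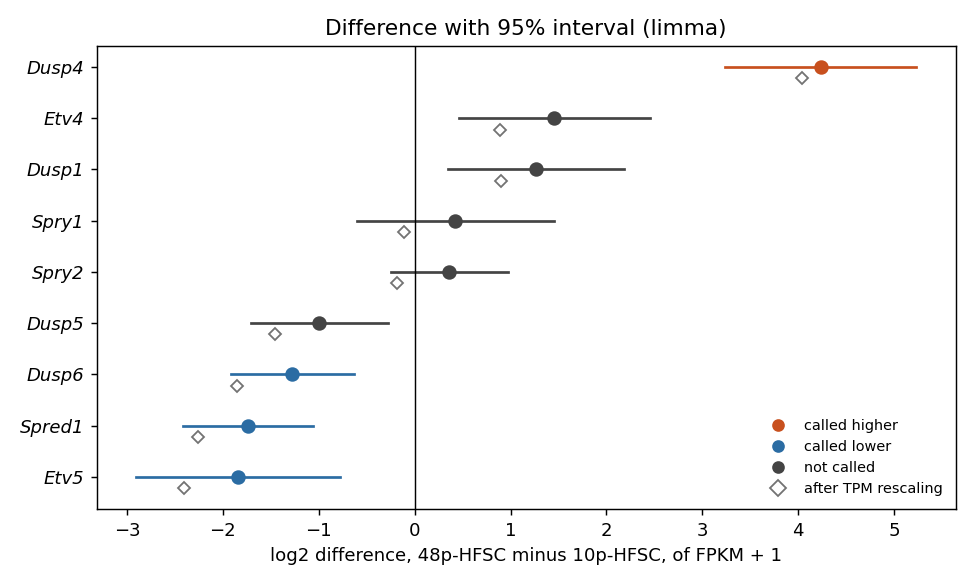
Difference between groups on the log2(FPKM + 1) scale for the 9 tested genes, with bars for the 95% interval from limma, filled circles for FPKM as deposited, and open diamonds for values after rescaling to TPM. Dusp4 lies at 4.24 and Etv5 at -1.84, and all diamonds lie to the left of the circles.

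Rescaling to TPM shifted the median difference of all tested genes from -0.03 to -0.55. Relative to this median, the difference under TPM was 4.60 for Dusp4, 1.45 for Etv4, -1.30 for Dusp6, -1.70 for Spred1 and -1.86 for Etv5. Dusp4, Dusp6, Spred1 and Etv5 were called in the same directions under TPM, median-of-ratios scaling and quantile normalization. For Dusp4, listed at 0 in both 10p-HFSC libraries, only a rise was possible. Median-of-ratios scaling left the values almost unchanged, with Dusp6 at -1.2743 as deposited and at -1.2715 after it, so its calls add little. Leaving out either 10p-HFSC library ended all 4 calls, with limma adjusted p-values between 0.0752 for Dusp4 and 0.352 for Etv5, and the 48p-HFSC pair alone then set the residual spread. The differences themselves were 4.24 in both cases for Dusp4, -1.23 and -1.32 for Dusp6, -1.66 and -1.81 for Spred1, and -1.75 and -1.94 for Etv5, without replicate 1 and replicate 2 of 10p-HFSCs respectively.

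Because the summed FPKM differed between libraries, being highest in replicate 2 of 48p-HFSCs, the genes were also set against each other within each library, in ratios that no scaling factor changes. The pairs were chosen after the values had been seen, and the ratios are therefore a description. With 2 libraries against 2, an exact permutation test could not give a two-sided p under 0.333 for any of them. Etv5 was at 1.99 and 1.38 times the FPKM of Etv4 at 10 passages and at 0.132 and 0.161 times at 48 passages. Thus Etv5 was the more abundant of the pair in both 10p-HFSC libraries, and Etv4 in both 48p-HFSC libraries. Dusp6 was at 8.53 and 8.24 times the FPKM of Spry2 at 10 passages and at 2.69 and 2.55 times at 48 passages. Spred1 was at 1.91 and 1.77 times that of Spry2 at 10 passages and at 0.423 and 0.348 times at 48 passages. For these pairs the replicates of each group lay close together compared with the distance between groups. A ratio does not remove an effect of transcript length that differs between libraries, and Spred1 and Spry2 have 6016 and 2087 bases. After the length and GC correction the log2 difference of Spred1 was -1.43, beside -1.73 as deposited, and that of Spry2 was 0.26, beside 0.36. The ratio of Dusp6 to Etv4 was 8.0 and 5.94 at 10 passages against 1.58 and 0.620 at 48 passages, with no overlap. That of Spry1 to Spry2 was 0.458 and 0.528 against 0.319 and 0.847, and here the groups overlapped.

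**Figure D3:**
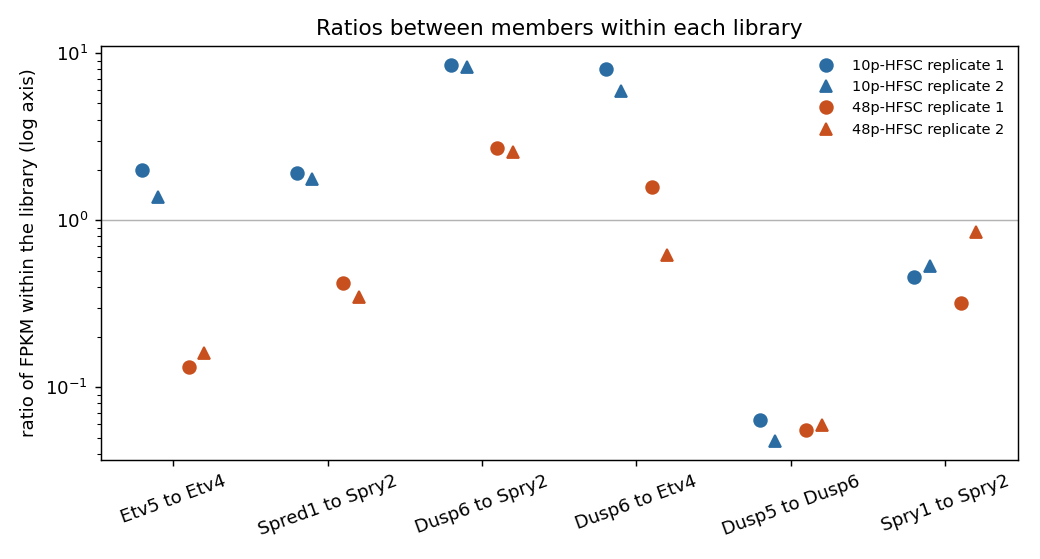
Ratio of FPKM between pairs of the genes within each library, on a log axis, with blue for 10p-HFSCs, orange for 48p-HFSCs, circles for replicate 1 and triangles for replicate 2. The ratio of Etv5 to Etv4 was above 1 in both 10p-HFSC libraries and at 0.132 and 0.161 at 48 passages, while that of Dusp5 to Dusp6 stayed between 0.0478 and 0.0634 in all 4.

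The make-up of the set as a whole differed between the groups. Summed over the 10 genes, the FPKM was 225 and 213 at 10 passages and 147 and 198 at 48 passages. As a share of all FPKM in the library, this was 0.0387% and 0.0296% at 10 passages and 0.0220% and 0.0140% at 48 passages, lowest in replicate 2 of 48p-HFSCs. Dusp6 held 54.3% and 53.6% of this sum at 10 passages and 35.8% and 22.4% at 48 passages. Etv4 held 6.78% and 9.02% at 10 passages and 22.7% and 36.1% at 48 passages. Dusp4 took up 8.16% and 13.4% at 48 passages, from none at 10 passages. In 10p-HFSCs the mean levels fell in the order Dusp6, Etv5, Spred1, Etv4, Spry2, Spry1, Dusp5 and Dusp1, and the libraries of Etv5 and Spred1 overlapped, as did those of Spry1 and Dusp5. In 48p-HFSCs the order was Etv4, Dusp6, Dusp4, Spry2, Spry1, Etv5, Spred1, Dusp1 and Dusp5, and every neighbouring pair overlapped except Dusp6 with Dusp4, Spry2 with Spry1, and Dusp1 with Dusp5. These are levels of different genes in FPKM, a unit scaled by exon length.

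**Figure D4:**
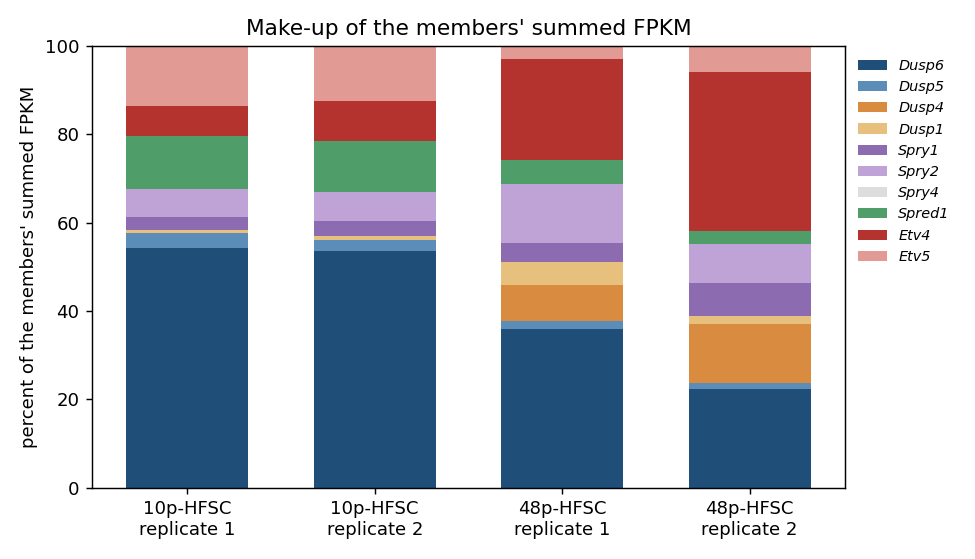
Share of each gene in the summed FPKM of the 10 genes, in percent, for each library. Dusp6 (dark blue, bottom) covers 54.3% and 53.6% at 10 passages and 35.8% and 22.4% at 48 passages, and Etv4 (dark red) widens to 22.7% and 36.1%.

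The 48p-HFSC replicates differed for Dusp4, Spry1, Etv4 and Etv5 by 2-fold or more in FPKM + 1, with replicate 2 the higher in all 4. This was 4 of the 9 tested genes, beside 17.0% of all tested genes. In 10p-HFSCs, 1.37% of all tested genes differed as much between replicates and none of the 9 did. All tested genes with a known transcript length were put into 4 classes of equal size, from the shortest (class 1) to the longest (class 4). Between 48p-HFSC replicates, the median log2 difference of replicate 2 from replicate 1 went from 0.47 in class 1 to -0.29 in class 4. Dusp4, Spry1 and Etv4 were in class 2, whose median was 0.10, and Etv5 was in class 3, whose median was -0.08, while their own differences were 1.08, 1.12, 1.08 and 1.21. The part of transcript length in these differences was not tested gene by gene.

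Among the genes that were no members, the 3 whose profile over the 4 libraries lay nearest to that of Dusp6 were Cry1, Nasp and Dna2, by Euclidean distance of log2(FPKM + 1) values centred on each gene's mean. Cry1, a repressor of the circadian clock, lay at a distance of 0.0053, with an FPKM of 7.75 and 7.21 at 10 passages and 2.81 and 2.23 at 48 passages. Nasp, a histone chaperone, lay at 0.059 and Dna2, a nuclease and helicase of DNA replication, at 0.071. Of the set itself, Dusp5 was nearest to Dusp6, at 0.383, and Spred1 followed at 0.474, but 4.18% and 6.86% of all other tested genes lay nearer than these.

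Genes around the set in the pathway were taken as lists. Of 10 relatives of the feedback genes, 7 were tested, 3 were called higher and none lower, with a median log2 difference of 0.96 beside -0.03 for all tested genes. The 3 were phosphatases. Dusp10, whose product prefers JNK and p38, was at an FPKM of 1.54 and 1.63 at 10 passages and of 13.1 and 11.7 at 48 passages (difference 2.37, limma adjusted p = 0.00318). Dusp9, whose product prefers ERK, was at 2.64 and 2.52 and then at 6.61 and 8.09 (difference 1.22, limma adjusted p = 0.0287). Dusp8, which acts on JNK and p38, was at 1.61 and 1.58 and then at 4.09 and 9.09 (difference 1.46, limma adjusted p = 0.0465). Under TPM none of the 3 was called, with limma adjusted p-values of 0.0904 for Dusp10, 0.486 for Dusp9 and 0.284 for Dusp8, and the Dusp8 call was also lost without replicate 2 of 48p-HFSCs, where the difference was 0.97. Under TPM this list had no gene called higher and 1 called lower, Dusp2, which passed the filter under that scaling.

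Of 8 receptors of the pathway, 5 were tested, 1 was called lower and none higher, with a median difference of -0.28. Fgfr2, the main FGF receptor of keratinocytes, was at an FPKM of 31.6 and 28.2 at 10 passages and of 13.6 and 11.3 at 48 passages. The difference was -1.20 (limma adjusted p = 0.0254). Under TPM it was -1.75 and was not called (limma adjusted p = 0.0634), beside a median of -0.55 for all tested genes. The call was also lost without replicate 2 of 48p-HFSCs, where the difference was -1.08, and after the length and GC correction, where it was -0.95. Fgfr1, Fgfr3 and Fgfr4, chosen after their values were seen, did not exceed an FPKM of 0.109. The 20 genes of the cascade from adaptor proteins through RAS and RAF to ERK all passed the filter and none was called in limma, with a median difference of -0.22 and a range of -0.84 to 1.11. Of these, 5 had an unadjusted p under 0.05. Without replicate 1 of 48p-HFSCs, Mapk3, the gene of a kinase at the end of the cascade, was called higher and Ptpn11, that of the phosphatase SHP2, was called lower.

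Of 10 other genes that ERK signaling raises, all were tested, 1 was called higher and 2 lower, with a median difference of 0.27. Hmga2, a chromatin protein, fell from an FPKM of 60.4 and 59.2 to 14.8 and 11.5 (difference -2.11, limma adjusted p = 0.00417). Lif, a cytokine of the interleukin-6 family, fell from 16.1 and 18.8 to 6.35 and 3.40 (difference -1.69, limma adjusted p = 0.0221). Plaur, the urokinase receptor, rose from 7.37 and 5.38 to 15.3 and 39.9 (difference 1.82, limma adjusted p = 0.0456), and this call was lost without replicate 2 of 48p-HFSCs (limma adjusted p = 0.0831). Without replicate 1 of 48p-HFSCs the difference of Plaur was 2.48, and Epha2, an ephrin receptor gene, and Ier3, an early response gene, were also called higher. Epha2 was called higher under quantile normalization as well, and Epha4, a related receptor gene, after the length and GC correction. Under TPM, Hmga2 alone of the 3 was called. Lif then had a difference of -2.18 (limma adjusted p = 0.0656), beside a median of -0.55 for all tested genes.

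Of 11 immediate-early genes, 9 were tested, 2 were called higher and 2 lower, with a median difference of 0.39. Jun, a subunit of the AP-1 factor, rose from an FPKM of 7.26 and 6.38 to 31.9 and 35.0 (difference 2.14, limma adjusted p = 0.00380), and Junb, another subunit, from 60.8 and 52.1 to 109 and 134 (difference 1.09, limma adjusted p = 0.0425). The zinc finger genes Egr3 and Egr2 fell, Egr3 from 3.07 and 3.42 to 0.426 and 0.0582 (difference -1.79, limma adjusted p = 0.00806), and Egr2 from 1.17 and 1.36 to a listing at 0 in both 48p-HFSC libraries (difference -1.18, limma adjusted p = 0.0157). Both Egr genes passed the filter on low values only through the 10p-HFSC libraries, so genes like these could pass only with a difference. The calls of Jun and Junb were lost under TPM (limma adjusted p = 0.104 and 0.404), and that of Junb also without replicate 2 of 48p-HFSCs (limma adjusted p = 0.0660).

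Across these lists, no gene stayed called when either 10p-HFSC library was left out. Without the filter on low values the calls of Dusp8, Dusp9, Plaur, Lif and Junb were also lost. Those of Dusp8 and Plaur were lost with a constant variance prior, those of Dusp8 and Junb under quantile normalization, and that of Junb after the length and GC correction. Without replicate 1 of 48p-HFSCs, the receptor gene Erbb2 and the immediate-early gene Ier2 were also called lower, and the immediate-early genes Atf3 and Nr4a1 higher.

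**Figure D5:**
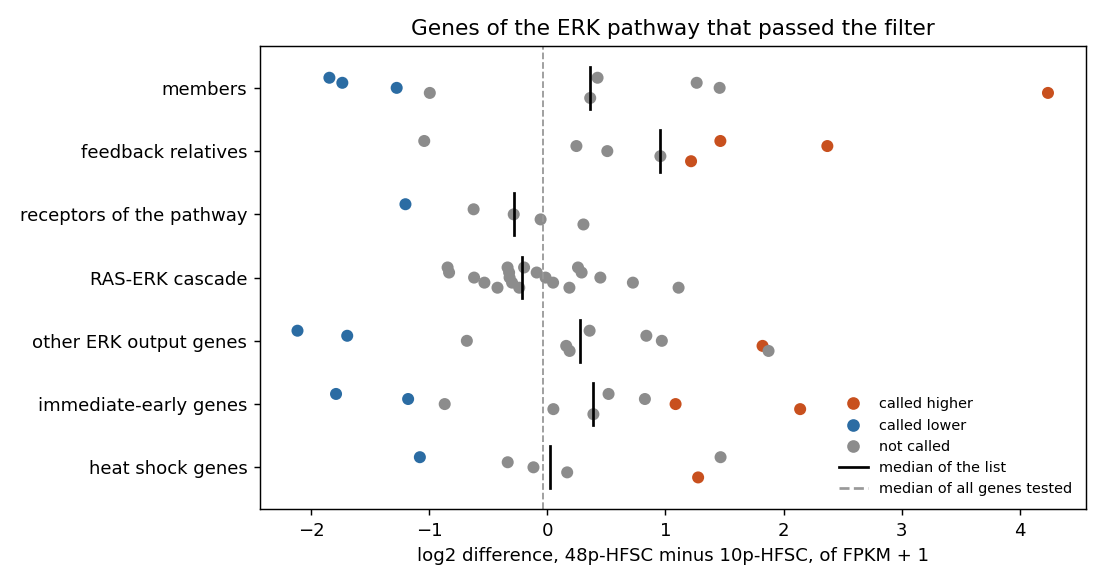
Difference between groups on the log2(FPKM + 1) scale for each tested gene of the set and of 6 pathway lists, with orange for genes called higher, blue for genes called lower, grey for genes not called, black bars for list medians and a dashed line for the median of all tested genes at -0.03. The RAS-ERK cascade holds 20 grey points between -0.84 and 1.11, and the point at 4.24 in the top row is Dusp4.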

How the data were processed

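Polyadenylated RNA of 10p- and 48p-HFSCs was sequenced from one end over 101 bp with a stranded kit, in 2 libraries per group. The authors mapped reads to mm10 with TopHat 2.1.1 and deposited one FPKM value per gene symbol and library. The methods name Bowtie2 2.3.5.1, SAMtools 1.2 and Cufflinks 2.2.1, while the submitters' processing notes name Bowtie2 2.2.8, SAMtools 0.1.18 and Cuffdiff 2.2.1. The gene annotation and the treatment of multiply mapped reads are not given in the sources used here. FPKM values are not counts, so a count test was not run.

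Genes that reached an FPKM of 1 in 2 or more libraries were compared on the log2(FPKM + 1) scale with limma 3.58.1 in R 4.3.3 (variance trend, Benjamini-Hochberg over 11018 genes), called at an adjusted p under 0.05 and an absolute difference of 1 or more. Differences on this scale understate those of low genes. The fit was tested on simulated data. Relative depth is the most common ratio of low FPKM values (under 0.3) between libraries. GENCODE M21 gave the length and GC content of transcripts, and gene positions and promoters came from RefSeq GRCm38.p6. Named were the 10 genes, the called genes of each pathway list (at most 6) and the 3 genes nearest to the most abundant of the 10. Other genes named were chosen after their values were seen. The 10 genes and all lists (feedback relatives, receptors, RAS-ERK cascade, other ERK output, immediate-early, heat shock and cell type markers) were chosen with earlier results of these data known. Alternatives were pseudocount 0.1, no filter, TPM, median-of-ratios and quantile scaling, a constant variance prior, no fold limit, a replicate block, leaving out each library and, added later, a length and GC correction. Python 3.11 was used elsewhere.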

Additional observations from a re-analysis of the deposited data

How the results depend on the processing

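The calls of Dusp4, Dusp6 and Spred1 held under every alternative that kept all 4 libraries, and that of Etv5 under all of these but the removal of the filter on low values. Dusp4, listed at 0 in both 10p-HFSC libraries, could be tested only with a rise under each of them. The count of the 10 genes called higher went from 1 to 3 under quantile normalization, to 3 with the replicate block and to 2 after the length and GC correction. Leaving out 1 library gave 0 to 2 of them higher and 0 to 3 lower. Spry1 reversed under TPM (-0.11) and without replicate 2 of 48p-HFSCs, its difference ranging from -0.13 to 0.98 with 1 library left out, and Spry2 under TPM (-0.18). Relative to the median of all tested genes, both stayed positive under TPM, Spry1 at 0.45 and Spry2 at 0.37. The pathway lists together had 7 genes called higher and 6 lower, 3 higher without the filter, 0 higher under TPM, and 0 to 13 higher and 0 to 10 lower with 1 library left out. Of all genes, 1189 were called higher and 1008 lower, 637 lower without the filter, 599 higher under TPM, and 35 to 1936 higher and 140 to 1875 lower with 1 library left out, where the lone library is assumed to vary like the other group. The cause of these shifts was not tested. The groups share replicate numbers 1 and 2, which the labels do not tie to a batch. Libraries of the same number deviated from their groups with a correlation of 0.408 across genes, and with the replicate block 1613 genes were called higher and 1497 lower, among the higher ones Dusp1 (limma adjusted p = 0.0107) and Etv4 (limma adjusted p = 0.00153), and of the pathway lists Mapk3 (limma adjusted p = 0.0135) and Epha2 (limma adjusted p = 0.00296). The block changed no other call of the 10 genes or the lists. Low FPKM values are least precise in replicate 2 of 48p-HFSCs.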

Other observations

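Of 6 heat shock genes, all tested, 1 was called higher and 1 lower, with a median log2 difference of 0.03. Hspa1a, an inducible chaperone gene, was at an FPKM of 0.0377 and 0 at 10 passages and of 1.66 and 1.29 at 48 passages (difference 1.28, limma adjusted p = 0.0138), and Hsph1, a co-chaperone gene, went from 65.2 and 58.7 to 28.9 and 28.7 (difference -1.08, limma adjusted p = 0.0294). Hspa1a passed the filter on low values only through the 48p-HFSC libraries. The call of Hsph1 was lost after the length and GC correction, and under TPM Hspa1a did not pass the filter. Hspb1, named after its values were seen, was at 998 and 1262 at 10 passages and at 1852 and 5199 at 48 passages, and was not called (limma adjusted p = 0.248), except without replicate 1 of 48p-HFSCs, where it was called higher.

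Spred2, the closest relative of Spred1 and also named after its values were seen, split the 48p-HFSC replicates, with an FPKM of 20.6 in replicate 1 and 2.2 in replicate 2, beside 21.1 and 12.2 at 10 passages (difference -1.04, limma adjusted p = 0.420). Without replicate 1 of 48p-HFSCs it was called lower. Dusp2, a nuclear phosphatase gene of the same list, was at 0.691 and 1.21 at 10 passages and at 0 in each 48p-HFSC library, and it did not pass the filter on FPKM as deposited.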
